A study of Mus musculus with 24 samples.

Results

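T11 cells given a fusion of Omomyc and FPP-1746, a cell-penetrating peptide, had higher levels at 3 h than T11 cells given Omomyc alone in 17 of 20 immediate-early factor genes, 12 of 21 stress-response genes of ATF4 and 5 of 9 chemokine genes. Levels were lower in 9 of 21 contractile and actin genes and in 5 of 29 mitosis genes. For comparison, 5.33% of 10121 genes, a set that excludes short RNA records, were higher and 3.52% were lower. The lists were chosen with earlier results of these data known, so their counts describe the lists and are no test of them. The count of lower mitosis genes depended on the settings. It ranged from 1 to 20 over the alternatives tried, with 20 under a 1.5-fold rule and 13 with equal column sums. The comparison takes the column of FPP-1746-Omomyc, called the fusion below, against the column of unfused Omomyc at 3 h. It covers 6 of the 24 samples of the series, 3 biological replicates in each of the 2 groups, which the authors deposited as 1 averaged column per group. Of 23235 genes in the table, 10262 had a mean of at least 1 FPKM over all 8 columns and entered the comparison. FPKM is the number of sequenced fragments scaled by transcript length and library size. Just inside this filter were Unc13c and Gm20554, each at a mean of 1.00 FPKM, and just outside it Fam63b (0.994 FPKM), Zfp446 (0.995 FPKM) and Tcf7l1 (0.998 FPKM). The 8 columns include both fusion columns. A gene low elsewhere could therefore enter only by being high there, as Fos and Il6 did, which favours higher genes in the list counts. With no filter on FPKM, 17 immediate-early, 12 stress-response and 6 chemokine genes were higher, of 23, 22 and 14 in the table.

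T11 cells are claudin-low mouse mammary carcinoma cells, known to derive from a tumour that lacked p53, and those used here express a luciferase gene in every group. The table nevertheless lists Trp53, the p53 gene, at 48.1 FPKM with Omomyc and 39.9 FPKM with the fusion. All groups were this 1 line, grown in RPMI medium with 1% serum. Cells received PBS, FPP-1746, Omomyc or the fusion for 3 h or for 6 h, the peptides at 5 µM. No group received Omomyc and FPP-1746 together as separate peptides. Every value below is 1 averaged column, so no spread between replicates can be given, no test was possible and no difference has a replicate check. "Higher" and "lower" are used for genes whose ratio of FPKM + 1 was at least 2-fold. In cultures read in bulk, fewer cells of a kind and less RNA per cell cannot be told apart.

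MYC is a transcription factor that binds E-box DNA as a dimer with MAX and drives genes of growth, ribosome production and the cell cycle. The proteins MXD1, MXI1 and MNT also pair with MAX and repress such genes. Omomyc is an altered form of the part of MYC through which it dimerises, and it pairs with MYC, MAX and itself and occupies E-boxes without activating. It is a small protein that has to enter the cell nucleus to act, and FPP-1746 is a carrier peptide meant to bring it in. Immediate-early genes such as Fos are switched on within minutes of a stimulus by factors already present in the cell. The integrated stress response, in which the kinases of eIF2 alpha raise translation of ATF4, switches on another set of genes more slowly.

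The FPKM of a column summed to 492091 for Omomyc and to 594951 for the fusion at 3 h, the lowest and highest of all 8 columns being 445657 and 594951. By a rough estimate from the steps between low values, 1 FPKM of a transcript of 2000 bases stood for 83 fragments in the Omomyc column and 64 in the fusion column. The epithelial markers Epcam, Cldn3 and Krt18 were at 0 in both columns and all 12 epithelial markers were under 1 FPKM. Of 10 mesenchymal markers 9 were expressed, Vim at 4198 FPKM with Omomyc and 5128 FPKM with the fusion, and Thy1 was at 0. For very short transcripts a single fragment gives a high FPKM, and 141 records of microRNAs and small nucleolar or other small RNAs were among the tested genes. Their FPKM swung between 0 and high values, as for Snord49b (0 with Omomyc and 441 FPKM with the fusion) and Snord69 (677 FPKM and 0), and they were left out of all that follows except where stated.

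The fusion differed from Omomyc in 957 of the 10262 tested genes, or 9.33%. Of these, 571 (5.56%) were higher and 386 (3.76%) were lower. Without the small RNA records the counts were 539 higher (5.33% of 10121) and 356 lower (3.52%), with a median log2 ratio over all genes of -0.01. This split depends on scaling: with the columns brought to the same FPKM sum, 369 genes were higher and 757 lower, so that 32.8% of the calls were higher in place of 60.2%, and the median of all tested genes shifted by -0.24. With the small RNA records kept, the same scaling gave 399 higher and 790 lower genes, 33.6% of calls higher in place of 59.7%. The higher genes reached larger ratios of FPKM + 1 than the lower ones: 123 were past 4-fold, 37 past 8-fold, 12 past 16-fold and 3 past 32-fold, against 13 lower genes past 4-fold and 0 past 8-fold. This form limits a fall by the level with Omomyc but sets no limit to a rise, so it contributes to the difference. Apol10b, for example, went from 5.88 to 0.383 FPKM at a log2 ratio of -2.31. With a pseudocount of 0.1 FPKM 681 genes were higher and 595 lower. Genes called higher went from a median of 8.11 FPKM with Omomyc to 28.0 FPKM with the fusion, and genes called lower from 16.3 to 6.39 FPKM.

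**Figure D1:**
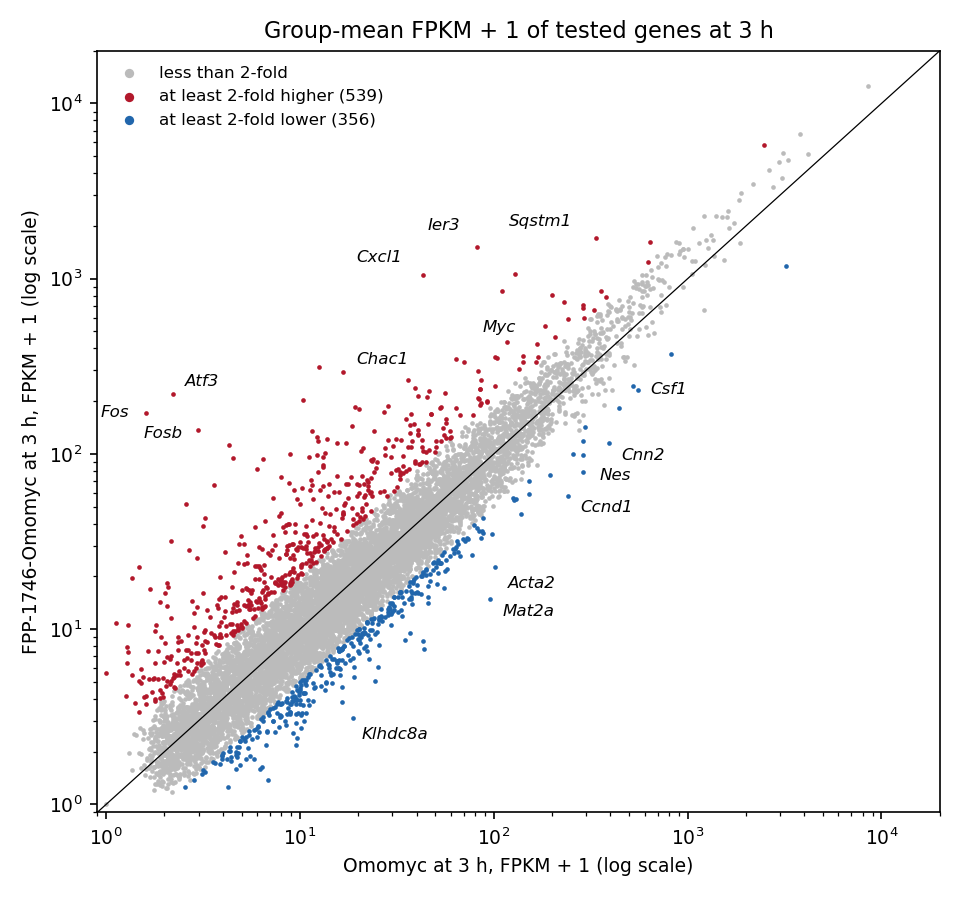
Each point is 1 of 10121 tested genes without small RNA records, by its group-mean FPKM + 1 with Omomyc (horizontal, log scale) and with FPP-1746-Omomyc (vertical, log scale) at 3 h. The 539 higher genes reach far above the line of equal values, led by Fos and Atf3, while the 356 lower genes lie closer to it, and 30 of the 36 genes above 1000 FPKM with Omomyc lie above the line. The floor of 1 on the axes limits how far a gene of low level can lie below the line.

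The reference column was itself close to the other controls. Between Omomyc and PBS at 3 h the 2-fold rule was passed by 1 gene (0.00988%), Snhg9. It has a locus shared with another gene and was listed at 0 with Omomyc and at 1.11 FPKM in PBS. FPP-1746 and Omomyc differed in 2 genes (0.0198%), Snhg9 and the unnamed locus LOC100302567, both chosen for mention after their values were seen. Of the 539 genes higher than with Omomyc, 520 were also past 2-fold against PBS, 512 against FPP-1746 and 500 against all 3 columns. Of the 356 lower genes, 317 were past 2-fold against PBS, 325 against FPP-1746 and 300 against all 3. These ratios share the fusion column and are not independent of each other.

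Myc and 3 other genes of its network were higher. Myc, on chromosome 15 (61816896 to 61821916, build mm9 as for all gene positions here), stood at 166 FPKM with Omomyc, 161 in PBS, 170 with FPP-1746 and 422 with the fusion at 3 h. The fusion column alone was high, and the log2 ratio against Omomyc was 1.34. In the list of 11 tested MYC, MAX and MXD network genes 4 were higher and 0 lower, with a median log2 ratio of 0.44 (0.20 with equal column sums, 0.94 for genes with a locus of their own). The other 3 encode repressive partners of MAX: Mxd1 went from 0.812 to 9.58 FPKM (log2 ratio 2.55), Mnt from 7.52 to 25.9 FPKM (1.66) and Mxi1 from 8.35 to 24.3 FPKM (1.44). Max stood at 57.5 FPKM with Omomyc and 70.4 FPKM with the fusion (0.29), which did not pass the 2-fold rule. Mxd3, another MAX partner, was at 8.94 and 5.85 FPKM (-0.54).

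Genes that MYC is known to activate lay slightly below 0, and genes it is known to repress above 0. Of 44 tested activated genes, 33 had a ratio below 0, 3 were lower and 0 higher, and the median log2 ratio was -0.18. With equal column sums 5 were lower and the median was -0.45. The lower ones were the RNA polymerase I subunit gene Polr1b (32.6 with Omomyc and 10.9 FPKM with the fusion), the complex I assembly gene Ndufaf4 (23.3 and 8.42 FPKM) and the ribosome biogenesis gene Rrp1b (36.5 and 14.2 FPKM). Of 17 tested repressed genes 8 were higher and 1 lower, with a median of 0.85, or 1.73 over members with a mean of at least 5 FPKM. Cdkn1a, which encodes the cyclin-dependent kinase inhibitor p21, stood at 3.12 FPKM with Omomyc, 2.67 in PBS, 2.64 with FPP-1746 and 26.5 with the fusion (log2 ratio 2.74). The stress-induced growth-arrest gene Gadd45a was at 10.2 and 95.1 FPKM (3.10), at a locus shared with another gene. The antiproliferative gene Btg1 was at 10.5 and 65.9 FPKM (2.54) and Ccng2, which encodes cyclin G2, at 4.17 and 29.4 FPKM (2.56). Higher members also counted in other lists were Gadd45a, Gadd45b and Btg1 (growth arrest), Klf6 (immediate-early), Cdkn1a (p53 targets) and Ndrg1 (hypoxia). Among genes with a locus of their own 6 were higher. The single lower member was the matrix gene Thbs1, at 816 FPKM with Omomyc and 370 FPKM with the fusion. Thbs1 stood at 551 FPKM in PBS and 892 FPKM with FPP-1746, so its ratio against PBS, -0.57, did not pass the rule.

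Immediate-early transcription factor genes held the largest ratios of the comparison. Fos, which encodes a subunit of the AP-1 transcription factor, stood at 0.606 FPKM with Omomyc, 0.432 in PBS, 0.523 with FPP-1746 and 170 with the fusion, a 107-fold ratio of FPKM + 1 (log2 ratio 6.74). Atf3, a stress-induced factor of the same superfamily, stood at 1.21 FPKM with Omomyc, 1.59 in PBS, 1.46 with FPP-1746 and 219 with the fusion (6.64). In both genes the 3 other columns were under 2 FPKM. All 12 tested Fos, Jun, Maf and Atf family genes of the AP-1 list had ratios above 0, 9 were higher and 0 lower, and the median was 1.79. Fosb was at 1.97 and 137 FPKM (5.54), Maff at 35.1 and 264 FPKM (2.88), Junb at 116 and 433 FPKM (1.90) and Jun at 63.1 and 183 FPKM (1.52). Fosl1, which encodes FRA-1, was already at 316 FPKM with Omomyc and at 365 FPKM with the fusion (0.21).

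Of 20 tested genes of the Egr, Nr4a, Klf and Ier families and related factors, 17 were higher and 1 lower, with a median of 2.25. Nr4a1, an orphan nuclear receptor gene, stood at 11.6 FPKM with Omomyc, 8.11 in PBS, 9.67 with FPP-1746 and 314 with the fusion (4.64). Its relative Nr4a2 was at 3.32 and 111 FPKM (4.70). Ier3, a survival gene, reached 1517 FPKM from 81.3 FPKM with Omomyc (4.20), and the nuclear factor gene Csrnp1 was at 9.40 and 201 FPKM (4.28). The single lower member was Srf, which encodes the serum response factor that is known to bind CArG boxes in front of Fos, Egr and actin genes. Srf stood at 194 FPKM with Omomyc, 155 in PBS, 193 with FPP-1746 and 75.3 with the fusion (-1.35).

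Feedback inhibitors of the MAP kinases and growth factor ligands held higher genes in the same column. Dual-specificity phosphatases dephosphorylate MAP kinases, and Sprouty proteins damp receptor signalling. Of 17 tested genes of this kind 12 were higher and 0 lower, with a median of 1.61. Dusp10 was at 7.86 FPKM with Omomyc and 99.3 FPKM with the fusion (3.50), Dusp4 at 16.3 and 115 FPKM (2.75), and Spry2 at 4.86 and 37.2 FPKM (2.71). Dusp1 stood at 19.1 FPKM with Omomyc, 10.8 in PBS, 17.7 with FPP-1746 and 179 with the fusion. Because the Omomyc column lay above PBS, its log2 ratio was 3.16 against Omomyc and 3.92 against PBS. Among 13 ligands of the EGF, FGF, PDGF and VEGF families and related factors 8 were higher and 1 lower, with a median of 1.45, or 0.17 with no filter on FPKM. The EGF receptor ligand genes Areg (2.15 and 37.6 FPKM, 3.61) and Ereg (3.84 and 29.5 FPKM, 2.66) led them, with the cytokine gene Lif (9.07 and 50.5 FPKM, 2.36) and the angiogenic factor gene Vegfa (55.2 and 220 FPKM, 1.98). Pdgfb was the lower one, at 33.7 FPKM with Omomyc, 21.3 in PBS, 30.7 with FPP-1746 and 7.63 with the fusion (-2.01).

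Promoters of 3 of these genes, chosen after matches to motifs were seen, are shown as examples of the element of the factor CREB, as the 250 bases before the annotated start in RefSeq (build GRCm38.p6, 5′ to 3′ on the strand of the gene). Fos lies at chr12:85473640-85473889 on the plus strand, with capitals marking the cyclic AMP response element core TGACGT, 66 to 61 bases before the start, and the TATA box TATAAA. Dusp1 lies at chr17:26508473-26508722 on the minus strand, with capitals marking TGACGT, 191 to 186 bases before the start, and the full element TGACGTCA, 143 to 136 bases before it. Atf3 lies at chr1:191183334-191183583 on the minus strand, with capitals marking the same core on the other strand, 8 to 3 bases before the start.
Fos: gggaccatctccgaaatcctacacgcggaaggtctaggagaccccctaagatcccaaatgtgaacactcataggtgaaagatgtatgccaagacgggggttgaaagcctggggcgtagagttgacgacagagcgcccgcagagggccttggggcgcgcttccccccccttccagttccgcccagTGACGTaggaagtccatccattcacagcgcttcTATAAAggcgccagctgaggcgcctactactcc
Dusp1: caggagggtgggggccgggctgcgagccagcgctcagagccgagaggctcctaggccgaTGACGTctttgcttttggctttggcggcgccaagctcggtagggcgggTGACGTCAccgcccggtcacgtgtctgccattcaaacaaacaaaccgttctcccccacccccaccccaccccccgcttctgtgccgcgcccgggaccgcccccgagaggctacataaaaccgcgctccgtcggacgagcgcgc
Atf3: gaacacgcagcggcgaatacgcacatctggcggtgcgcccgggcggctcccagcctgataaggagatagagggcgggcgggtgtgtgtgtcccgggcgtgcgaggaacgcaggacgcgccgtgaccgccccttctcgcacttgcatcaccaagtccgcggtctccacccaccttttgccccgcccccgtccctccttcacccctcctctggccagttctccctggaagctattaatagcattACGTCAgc
The same core was not in the windows of Fosb, Nr4a1, Nr4a2, Csrnp1, Ier3, Maff, Dusp10 and Dusp2, other named genes of these groups. The core TGACGT, searched on both strands, was found in 15.6% of the 397 promoters of higher genes, 12.2% of the 245 of lower genes, 11.4% of the 7333 of tested genes and 6.56% of all 27025 promoters in the table. TGACGTCA, each match of which also holds TGACGT, was in 4.79%, 3.67%, 3.04% and 1.62% of them. The AP-1 motif TGANTCA was in 6.55% of promoters of higher genes, 2.04% of lower genes, 3.86% of tested genes and 6.87% of all promoters, and TATAAA in 9.82%, 6.94%, 5.73% and 13.0%. The E-box CACGTG, the motif of MYC and MAX, was in 11.8%, 9.39%, 9.03% and 6.05%. A match describes the letters of the window and not a bound site.

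Higher genes were found among the targets of ATF4 and the brakes on mTORC1, and none among the enzymes of amino acid synthesis and tRNA charging at 3 h. Over all 10121 genes 5.33% were higher, and counts of 0 in lists as short as those of the enzymes lie near that share. Of 21 tested genes of the integrated stress response 12 were higher and 0 lower, with a median of 1.23. Chac1, which encodes an enzyme that degrades glutathione, stood at 15.8 FPKM with Omomyc, 13.6 in PBS, 17.1 with FPP-1746 and 292 with the fusion (4.13). Ppp1r15a, whose product GADD34 brings the phosphatase back to eIF2 alpha, was at 17.6 and 142 FPKM (2.95). Atf4 was at 288 and 676 FPKM (1.23) and Ddit3, which encodes CHOP, at 20.2 and 107 FPKM (2.35). Among members that did not pass the rule, Asns, the asparagine synthetase gene, was at 349 and 453 FPKM (0.37), and the cystine transporter gene Slc7a11 at 4.36 and 5.23 FPKM (0.22). Of 13 genes of serine, asparagine and proline synthesis 0 were past the rule although 12 had ratios above 0 (median 0.48), and of 20 cytosolic aminoacyl-tRNA synthetase genes also 0 (median 0.05, which turned negative with columns scaled to the same sum).

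Of 11 tested amino acid transporter genes all had ratios above 0 and 2 were higher: Slc38a2, which encodes SNAT2 (62.8 FPKM with Omomyc and 346 FPKM with the fusion, 2.44), and Slc3a2, the heavy chain of the CD98 exchangers (165 and 333 FPKM, 1.01). At 6 h 7 of the 11 were higher, with the median at 1.31 in place of 0.45, and 19 of the 21 integrated stress response genes were higher, with the median at 2.04. Among 16 genes that restrain mTORC1 or sense nutrients 7 were higher and 0 lower (median 0.91, or 1.85 over members with a mean of at least 5 FPKM). Members not past the rule included Deptor (-0.02) and Tsc2 (0.21). The higher ones included the leucine sensor gene Sesn2 (6.26 and 55.2 FPKM, 2.95), Ddit4, which encodes REDD1 (23.1 and 133 FPKM, 2.48), and Flcn, the folliculin gene (10.3 and 61.0 FPKM, 2.46). Chac1 lies at chr2:119350992-119351241 on the plus strand in GRCm38.p6, and the capitals in its promoter mark the composite element of ATF4 and C/EBP, TGATGNAA read on the other strand, 193 to 186 bases before the start.
Chac1: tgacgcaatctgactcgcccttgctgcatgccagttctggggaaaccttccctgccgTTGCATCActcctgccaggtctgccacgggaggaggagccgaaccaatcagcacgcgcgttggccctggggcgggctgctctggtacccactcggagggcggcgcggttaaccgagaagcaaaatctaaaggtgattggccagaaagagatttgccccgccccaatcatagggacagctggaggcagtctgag
This motif was in 3.27% of the promoters of higher genes, 1.22% of lower genes, 1.81% of tested genes and 3.53% of all promoters. Of other named genes, Herpud1 and Atf3 held it, and Ppp1r15a, Sesn2, Ddit4, Slc38a2 and Slc3a2 did not.

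Genes of lysosomes and autophagy were also shifted upward. Of 31 tested genes 28 had ratios above 0, 8 were higher and 0 lower, and the median was 0.77 (4 higher and a median of 0.50 with equal column sums). Sqstm1, which encodes the autophagy receptor p62, was at 338 FPKM with Omomyc, 310 in PBS, 324 with FPP-1746 and 1702 with the fusion (2.33). Gla, the lysosomal alpha-galactosidase gene, was at 8.63 and 54.6 FPKM (2.53), the LC3 gene Map1lc3b at 19.1 and 65.4 FPKM (1.72) and the cathepsin gene Ctsd at 240 and 585 FPKM (1.28). Of 31 genes of endocytosis and macropinocytosis 1 was higher, Lrp1 (1.09), and of 22 of membrane repair 0. These counts lie near the 5.33% higher over all 10121 genes. Their medians were 0.20 and 0.14, and both turned negative when the columns were scaled to the same sum.

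Inflammatory genes were among the higher genes of the fusion column. Of 9 tested chemokine genes 5 were higher and 0 lower, with a median of 1.17 at 3 h and -0.01 at 6 h. Ratios of 2 lay below 0 at 3 h. They were Cxcl12 (667 FPKM with Omomyc and 487 FPKM with the fusion, -0.45) and Cx3cl1 (115 and 70.6 FPKM, -0.70). Cxcl1, a chemokine that draws in neutrophils, stood at 42.0 FPKM with Omomyc, 38.9 in PBS, 37.3 with FPP-1746 and 1054 with the fusion (4.62). Cxcl10 was at 3.52 and 94.0 FPKM (4.40), its locus being shared with another gene in the table, and the monocyte chemokine gene Ccl2 at 10.4 and 70.5 FPKM (2.64). Of 14 tested genes of cytokines, prostaglandin synthesis and their regulators 9 were higher and 1 lower (median 1.46, or 0.52 with no filter on FPKM). The table holds 23 genes of this list, and Il6 and Il11 passed the filter only through the fusion columns. Il6 was at 0.682 and 15.9 FPKM (3.33), and Ptgs2, which encodes the inducible cyclooxygenase, at 109 FPKM with Omomyc, 68.9 in PBS, 127 with FPP-1746 and 852 with the fusion (2.96). Csf1, the macrophage growth factor gene, was the lower one, at 525 and 244 FPKM (-1.10).

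Among 16 tested NF-kB subunit and inhibitor genes 5 were higher and 0 lower (median 0.73), and the largest value was that of Nfkbia, which encodes the inhibitor I kappa B alpha (38.4 and 237 FPKM, 2.59). The subunit gene Rel was at 2.18 and 8.58 FPKM (1.59), while Nfkb1 was at 83.9 and 138 FPKM (0.71). Of 8 tested interferon-response genes 1 was past the rule, B2m (1.00, shared locus), with a list median of 0.00 whose sign changed under 5 of the alternatives. Of 9 macrophage markers 2 were expressed, Cd14 at 11.3 FPKM with Omomyc and 77.4 FPKM with the fusion and Cd68 at 1.76 and 3.49 FPKM. The summed level of the 9 was 13.1 FPKM with Omomyc, 81.0 with the fusion and 11.2 to 121 over the 8 columns. The defining markers Emr1, Itgam and Lyz1 were at 0 in both columns, and Ptprc, Csf1r and Aif1 were under 1 FPKM. The promoter of Cxcl1 lies at chr5:90890995-90891244 on the plus strand in GRCm38.p6, and capitals mark overlapping matches of the NF-kB site on both strands, 71 to 61 bases before the start.
Cxcl1: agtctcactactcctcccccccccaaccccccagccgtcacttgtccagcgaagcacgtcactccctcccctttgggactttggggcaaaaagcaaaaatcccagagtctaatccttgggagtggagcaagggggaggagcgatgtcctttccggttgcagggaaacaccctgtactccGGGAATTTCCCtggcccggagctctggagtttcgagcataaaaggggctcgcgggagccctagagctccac
The NF-kB site was in 10.1% of the promoters of higher genes, 10.2% of lower genes, 8.67% of tested genes and 7.01% of all promoters.

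Growth-arrest and clock lists held mostly higher genes, and the p53-target list was divided. Of 10 tested Gadd45, Btg and Tob genes 7 were higher and 0 lower (median 1.74), with 5 higher among genes with a locus of their own. In the p53-target list 8 of 19 tested genes were higher and 0 lower, yet 9 had ratios below 0 and the median was 0.36. With equal column sums 3 were lower. The higher ones included Plk3 (10.6 and 134 FPKM, 3.54, shared locus), Eda2r (1.06 and 17.4 FPKM, 3.16), Sesn2 and Cdkn1a. In contrast, Phlda3 was at 51.9 and 27.8 FPKM (-0.88), Zmat3 at 8.98 and 5.33 FPKM (-0.66) and Ccng1 at 18.2 and 12.9 FPKM (-0.47). The list also holds Trp53 itself, at 48.1 FPKM with Omomyc and 39.9 FPKM with the fusion (-0.26), in a line known to derive from a tumour without p53. Several of its higher members also stand in the stress-response and growth-arrest lists. Of 14 tested circadian clock genes 9 were higher and 0 lower (median 1.47). Per1, a core repressor of the clock, stood at 2.25 FPKM with Omomyc, 1.37 in PBS, 2.09 with FPP-1746 and 41.9 with the fusion (3.72). Nr1d1 was at 12.8 and 120 FPKM (3.14) and Nfil3 at 12.4 and 100.3 FPKM (2.91), while Clock, which encodes the activating subunit, was at 21.6 and 18.1 FPKM (-0.24).

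**Figure D2:**
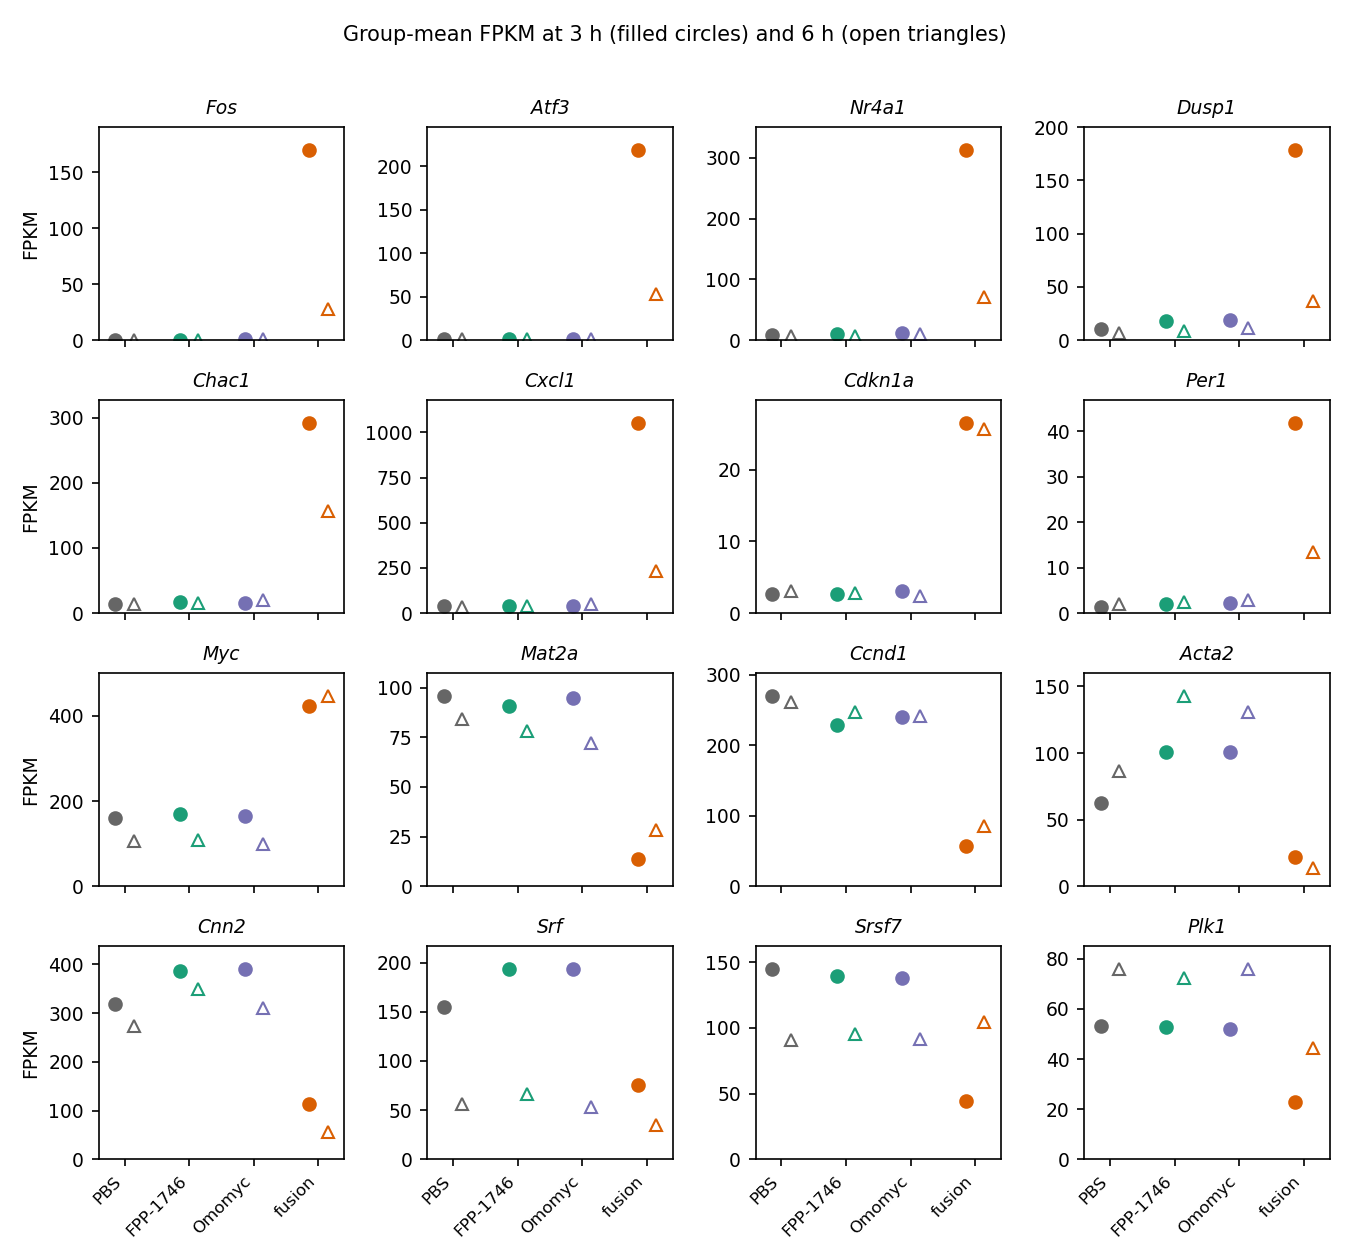
Group-mean FPKM (vertical, linear from 0, own scale per gene) of 16 genes in PBS, FPP-1746, Omomyc and the fusion at 3 h (filled circles) and 6 h (open triangles), 1 averaged value per point. Fos, Atf3 and Cxcl1 are high in the fusion columns alone, and Acta2, Cnn2 and Srf at 3 h show the Omomyc and FPP-1746 columns above PBS and the fusion below all 3.

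Contractile and actin genes known to be controlled by SRF had the lowest median of the 51 lists, except without the filter on FPKM, where that of mitosis genes was lower. Of 21 tested genes 9 were lower and 0 higher, 18 had ratios below 0 and the median was -0.80. Acta2, which encodes smooth muscle actin, stood at 101 FPKM with Omomyc, 62.2 in PBS, 101 with FPP-1746 and 21.7 with the fusion (-2.17). Cnn2, the calponin 2 gene, stood at 391 FPKM with Omomyc, 319 in PBS, 386 with FPP-1746 and 114 with the fusion (-1.77). Myl9, a myosin light chain gene, was at 8.52 FPKM with Omomyc, 6.29 in PBS, 8.78 with FPP-1746 and 1.18 with the fusion (-2.13). In these genes the Omomyc and FPP-1746 columns lay together above PBS and the fusion column lay below all 3.

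The same held over the list: its median log2 ratio was 0.21 for Omomyc against PBS and 0.00 for FPP-1746 against Omomyc. Against PBS the median of the fusion was -0.60, smaller than the -0.80 against Omomyc, and both ratios use the fusion column. Actb, the cytoplasmic beta-actin gene often used as an internal standard and named here after its value was seen, was at 3216 FPKM with Omomyc and 1176 FPKM with the fusion (-1.45). Vcl, the vinculin gene of focal adhesions, was at 287 and 117 FPKM (-1.29). Tpm2 (103 and 101 FPKM, -0.02) and Tagln2 (0.02, 1049 and 1065 FPKM) were at about the same level in both columns. Mkl1, which encodes the actin-sensing coactivator of SRF, was at 13.4 and 20.8 FPKM (0.60). Of 19 YAP targets and CCN genes 2 were lower, Ankrd1 (441 and 181 FPKM, -1.28) and Jub (58.1 and 25.3 FPKM, -1.17).

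The promoters of Myl9 (chr2:156775214-156775463, plus strand), Cnn2 (chr10:79988350-79988599, plus strand) and Srf (chr17:46556163-46556412, minus strand) in GRCm38.p6 are shown because these lower genes hold the CArG box, the DNA element of SRF, in capitals. It lies 161 to 152 bases before the start of Myl9 and 56 to 47 bases before that of Cnn2. Srf has 2 matches, 82 to 73 and 62 to 53 bases before its start. No match was in the window of Acta2.
Myl9: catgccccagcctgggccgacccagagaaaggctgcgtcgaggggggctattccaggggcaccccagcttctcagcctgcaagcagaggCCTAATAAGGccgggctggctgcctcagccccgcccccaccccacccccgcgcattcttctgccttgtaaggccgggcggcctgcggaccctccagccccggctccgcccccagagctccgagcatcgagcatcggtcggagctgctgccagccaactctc
Cnn2: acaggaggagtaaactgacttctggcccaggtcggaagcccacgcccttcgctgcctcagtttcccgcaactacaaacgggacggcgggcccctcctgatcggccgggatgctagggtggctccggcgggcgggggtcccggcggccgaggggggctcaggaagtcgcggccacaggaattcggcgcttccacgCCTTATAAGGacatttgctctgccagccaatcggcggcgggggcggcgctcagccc
Srf: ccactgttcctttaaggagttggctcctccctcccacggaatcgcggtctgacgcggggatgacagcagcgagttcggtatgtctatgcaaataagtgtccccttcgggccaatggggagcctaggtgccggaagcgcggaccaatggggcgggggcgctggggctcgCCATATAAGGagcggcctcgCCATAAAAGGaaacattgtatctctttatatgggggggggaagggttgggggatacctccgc
The CArG box was in 9 of 245 promoters of lower genes (3.67%), in 5 of 397 of higher genes (1.26%), in 87 of 7333 of tested genes (1.19%) and in 1.40% of all promoters. The lower genes with a match were Acta1, Ckap2l, Cnn2, Fhl1, Ldb3, Myl9, Srf, Ston1 and Vcl, and the higher ones Dusp5, Ing2, Pip5k1a, Tbc1d9 and Zfp36. Of these Zfp36, an mRNA decay factor gene of the immediate-early class, was at 11.2 and 98.1 FPKM (3.02). These genes were named after the matches were counted.

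Ratios of mitosis genes lay below 0, with few past the rule, and the cyclin D1 gene was lower. Of 29 tested genes of mitosis and cytokinesis 28 had ratios below 0, 5 were lower and 0 higher, and the median was -0.67. The count of lower genes was 13 with equal column sums and 1 with a pseudocount of 5 FPKM. Plk1, the polo-like kinase gene, stood at 52.1 FPKM with Omomyc, 53.2 in PBS, 52.7 with FPP-1746 and 22.8 with the fusion (-1.16), and the centromere gene Cenpf was at 5.79 and 1.58 FPKM (-1.40). The proliferation marker gene Mki67 was at 19.4 and 8.16 FPKM (-1.15). Of 36 DNA replication genes 0 passed the rule in either direction (median -0.17). Ccnd1, which encodes the G1 cyclin D1, stood at 240 FPKM with Omomyc, 270 in PBS, 228 with FPP-1746 and 56.9 with the fusion (-2.06). It was the single lower gene among 23 G1 cyclins, kinases and inhibitors, in which Cdkn1a was the single higher one. With equal column sums 4 of the 23 were lower and 1 higher, and at 6 h 4 were lower.

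The lowest ratio outside small RNA records was that of Mat2a, which encodes the enzyme that makes S-adenosylmethionine from methionine. Mat2a stood at 94.9 FPKM with Omomyc, 95.9 in PBS, 90.8 with FPP-1746 and 13.8 with the fusion (-2.69), and the table gives it a locus shared with another gene. Msrb3, a methionine sulfoxide reductase gene with a shared locus too, was at 42.8 and 6.68 FPKM (-2.51). Msrb3 was counted in the methionine cycle list although its product is not an enzyme of the cycle. The other 8 tested genes of the list were not past the rule, Mtrr being nearest to it (10.6 and 4.79 FPKM). Klhdc8a (17.9 and 2.11 FPKM, -2.60), the potassium channel gene Kcnf1 (42.4 and 7.60 FPKM, -2.33) and the intermediate filament gene Nes (286 and 78.3 FPKM, -1.86) were also among the lowest genes.

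Genes of RNA polymerase I, ribosome assembly and splicing tended below 0. Of 43 tested genes of RNA polymerase I and ribosome biogenesis 36 had ratios below 0, 4 were lower and 0 higher, and the median was -0.36 (12 lower and -0.63 with equal column sums). Gemin4, counted in this list though it belongs to the SMN complex that assembles spliceosomal particles, was at 24.3 and 5.06 FPKM (-2.06). Polr1b (-1.50), Rrp1b (-1.30) and the polymerase I subunit gene Polr1e (-1.02) followed. Of 32 splicing factor and hnRNP genes 24 had ratios below 0, 3 were lower and 2 higher (median -0.37). With equal column sums 8 were lower and 1 higher (median -0.64). The SR protein genes Srsf7 (138 and 44.6 FPKM, -1.60), Srsf1 (151 and 57.8 FPKM, -1.37) and Srsf11 (54.5 and 26.6 FPKM) were lower. The higher ones were Clk1 (15.6 and 42.2 FPKM, 1.38) and Clk4 (10.3 and 23.4 FPKM, 1.11), which encode kinases that phosphorylate SR proteins.

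**Figure D3:**
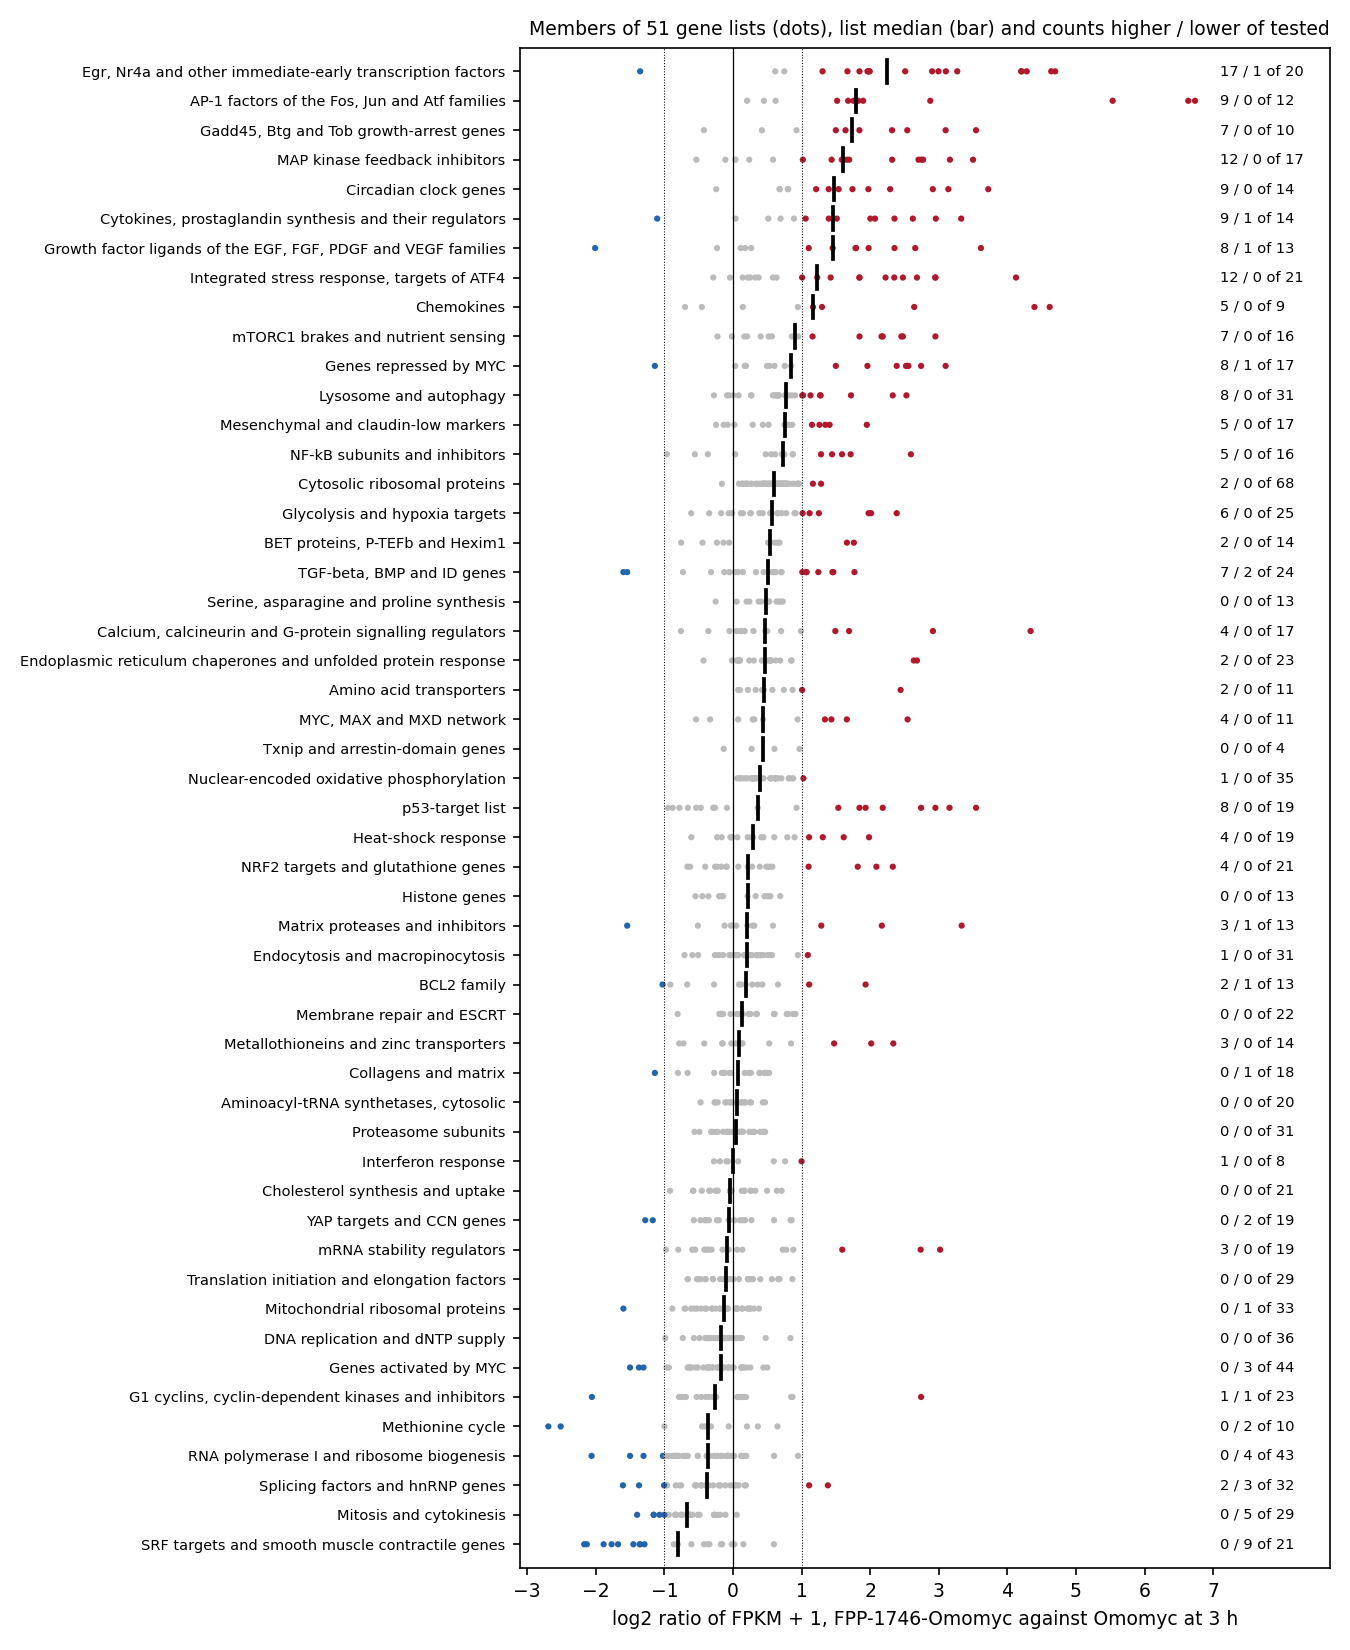
Log2 ratio of FPKM + 1, fusion against Omomyc at 3 h, of each tested member (dots; red at least 2-fold higher, blue at least 2-fold lower) of 51 gene lists, with the list median as a bar and the counts higher / lower of tested at the right. Immediate-early and AP-1 lists head the order (medians 2.25 and 1.79) and the SRF list ends it (-0.80); with the columns scaled to the same FPKM sum the medians of 10 lists near 0 change sign.

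Most ribosomal protein genes had ratios above 0, and so had most genes with short transcripts. Of 68 tested cytosolic ribosomal protein genes 67 had ratios above 0 (median 0.59, or 0.32 with equal column sums). Only 2 were past the rule, Rps21 (289 and 706 FPKM, 1.29, shared locus) and Rpl38 (9.11 and 21.7 FPKM, 1.17). All 35 nuclear-encoded oxidative phosphorylation genes had ratios above 0 (median 0.40, or 0.13 with equal column sums), and Cox6c alone was past the rule (293 and 598 FPKM, 1.03). The median transcript length of the ribosomal protein genes was 1100 bases. Among the 424 tested genes whose longest annotated transcript has at most 1000 bases 351 had ratios above 0. Their median log2 ratio was 0.42, and 0.39 for the 384 of them outside the cytosolic and mitochondrial ribosomal protein and oxidative phosphorylation lists. It was 0.10 between 1000 and 2000 bases, -0.01 between 2000 and 3000 bases and between -0.07 and -0.06 in the 3 longer classes. At 6 h the order was the opposite, from -0.24 in the shortest class to 0.16 in the longest.

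With the median of each length class set to 0, the median of the ribosomal protein genes was 0.35 and that of the oxidative phosphorylation genes 0.30. The part of transcript length in these ratios was not tested. The ratio also varied with level: the median was 0.46 for the 36 genes above 1000 FPKM with Omomyc, 30 of them above 0, and -0.06 for the 5153 genes between 10 and 100 FPKM. Mitochondrial ribosomal protein genes, also nuclear-encoded, had a median of -0.13 with 1 lower gene, Mrps2 (44.9 and 14.2 FPKM, -1.60). The ribosomal RNA precursor, listed as Rn45s, was at 84.0 FPKM with Omomyc, 138 in PBS, 96.2 with FPP-1746 and 233 with the fusion.

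**Figure D4:**
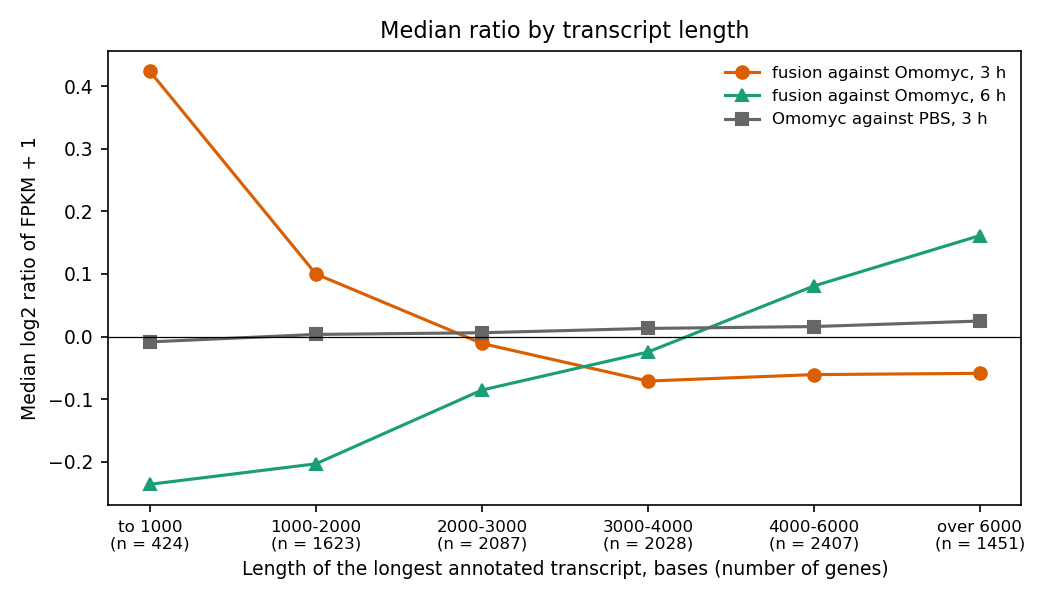
Median log2 ratio of FPKM + 1 (vertical) in 6 classes of transcript length (horizontal, bases, with the number of genes) for the fusion against Omomyc at 3 h and 6 h and for Omomyc against PBS at 3 h. The shortest class is at 0.42 for the fusion at 3 h and at -0.24 at 6 h, while Omomyc against PBS stays between -0.01 and 0.02.

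The higher genes were more often past the rule again at 6 h than the lower ones, in columns that the 3 h comparison does not use. At 6 h the fusion was higher than Omomyc in 644 genes (6.36%) and lower in 282 (2.79%). With small RNA records kept, 676 were higher and 315 lower at 6 h, and 820 and 250 with equal column sums. The same scaling gave 399 higher and 790 lower at 3 h. The counts shared between the times were not recomputed under that scaling. Of the 539 genes higher at 3 h, 301 (55.8%) were higher at 6 h, 0 were lower and 521 kept a ratio above 0, and their median log2 ratio went from 1.48 to 1.11. Of the 356 lower genes, 46 (12.9%) were lower at 6 h and 242 kept a ratio below 0, and their median went from -1.20 to -0.31. Read from 6 h, the shared genes were 46.7% of those higher and 16.3% of those lower at that time. Over 10121 genes the ratios at both times had a Pearson correlation of 0.509, across genes, which are not independent replicates.

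Members of the groups differed in this. Fos went from 170 to 27.5 FPKM in the fusion columns, with log2 ratios of 6.74 at 3 h and 4.02 at 6 h, and Cxcl1 from 1054 to 232 FPKM (4.62 and 2.24). Nfkbia (2.59 and 0.45), the phosphatase gene Dusp2 (2.77 and 0.06) and Ccng2 (2.56 and 0.36) were no longer past the rule. Myc (1.34 and 2.17), Cdkn1a (2.74 and 2.96), Ndrg1 (2.39 and 3.11), Eda2r (3.16 and 3.60) and Ramp3, which encodes a receptor-modifying protein (2.92 and 3.77, shared locus), had ratios at 6 h at least as large as at 3 h. The pseudokinase gene Trib3, a target of CHOP, had ratios of 1.84 and 4.06. Among the lower genes the SRF list kept its median, -0.80 at 3 h and -0.85 at 6 h, with 9 lower members each time, and Acta2 had ratios of -2.17 and -3.18. The splicing gene Srsf7 (-1.60 and 0.19), Gemin4 (-2.06 and 0.30), Polr1b (-1.50 and -0.19) and Mrps2 (-1.60 and -0.10) were near the Omomyc level at 6 h. Mat2a (-2.69 and -1.33) and Ccnd1 (-2.06 and -1.50) were lower at both times.

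**Figure D5:**
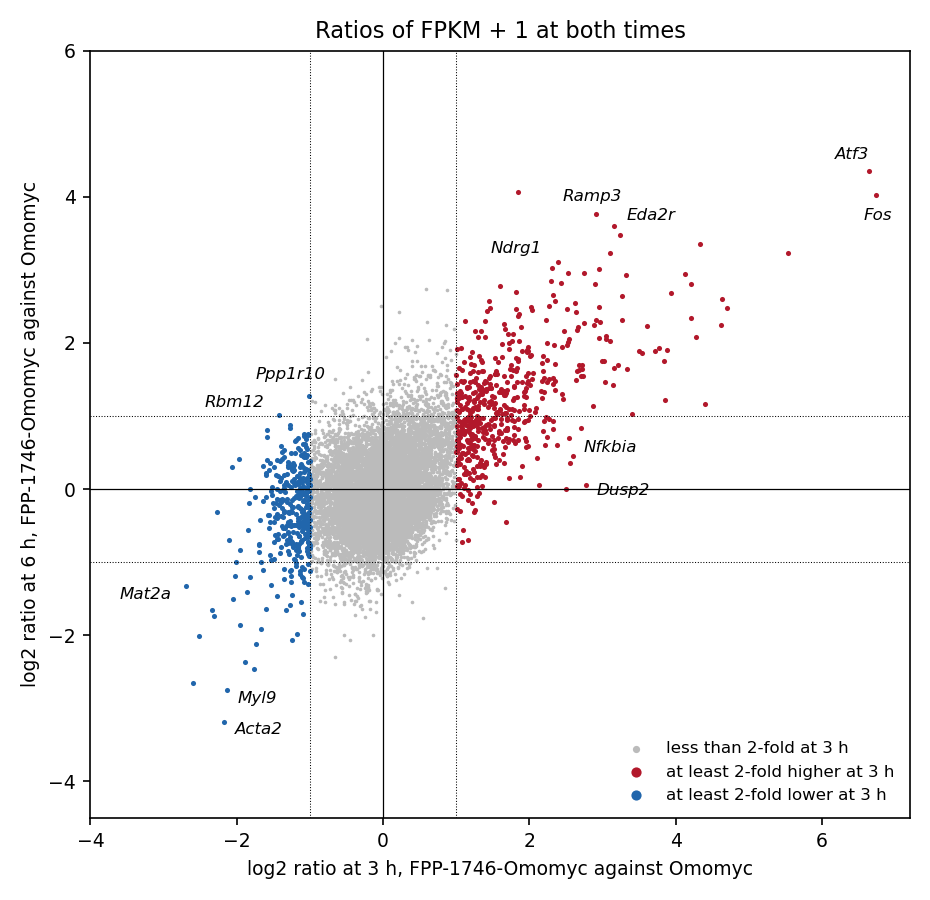
Log2 ratio of FPKM + 1, fusion against Omomyc, at 3 h (horizontal) and at 6 h (vertical) for 10121 genes, coloured by the call at 3 h, with dotted lines at the 2-fold rule. Most higher genes (red) stay above 0 at 6 h, 521 of 539, while the lower genes (blue) spread on both sides of 0, 242 of 356 below it.

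Some ratios depend on Omomyc being the reference. Besides Dusp1, Acta2 and Pdgfb, the genes whose ratio moved most between the references included Cdc42ep3, a regulator of the actin cytoskeleton, at 53 FPKM with Omomyc, 31.3 in PBS, 53.9 with FPP-1746 and 25.3 with the fusion. Its log2 ratio was -1.04 against Omomyc and -0.29 against PBS. Macc1 stood at 8.97 FPKM with Omomyc, 5.36 in PBS, 7.34 with FPP-1746 and 2.92 with the fusion (-1.35 and -0.70). S100a7a was at 13.2 FPKM with Omomyc, 8.07 in PBS, 11.5 with FPP-1746 and 4.99 with the fusion (-1.25 and -0.60). In these genes the 2 unfused peptides lay above PBS and the fusion below all 3 columns. Usmg5 differed in another way, at 5.41 FPKM with Omomyc, 9.90 in PBS, 5.20 with FPP-1746 and 12.0 with the fusion (1.02 and 0.25, shared locus).

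The structure of the called genes differed a little from that of all genes. Gene models were found for 10020 of 10121 genes (99.0%). Of the higher genes 8.77% and of the lower genes 8.81% had a longest transcript with a single exon, against 5.75% of all, and the median number of exons was 5 in higher genes, 6 in lower genes and 8 in all. The median length of the longest transcript was 3491 bases in higher genes, 3302 in lower genes and 3410 in all.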

How the data were processed

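RNA-seq of T11 cells in 8 groups was deposited as 1 table of FPKM, 1 averaged column per group, which the authors made. The submitters' processing notes list Cuffnorm 2.2.1, Cufflinks 2.2.1, STAR 2.1.3 and bcl2fastq 2.17.1.14 with build mm9. Their order, settings, library scaling and use of strand were not given in the sources used here, so overlapping and antisense genes cannot be told apart. Single replicates were not used here. RNA integrity was 10 in all samples, per the labels' protocols. The 3 samples titled fusion at 6 h carry a treatment tag of 3 h, and the titles and the column name were followed.

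Log2 ratios of FPKM + 1 were computed with Python 3.11.15 and pandas 2.3.3 for genes that averaged 1 FPKM or more over the columns, a form that understates the change of low genes. A gene was called at a ratio of at least 2-fold, by code tested on simulated data. The members, the 51 gene lists and 6 marker lists were chosen with earlier results of these data known. Named genes are the 20 highest and 20 lowest, up to 4 per list and direction, Myc, Max, Mycn, Mxd1, Mnt and Cdkn1a, up to 10 per direction past the rule at both times, those opposite at both times, and 10 whose ratio depends most on the reference, with up to 5 small RNA records per direction, the highest and lowest being taken without pseudogenes, clones and predicted genes. Other list members were named after their values were seen. Lists share some genes. Transcript lengths and exons are from GENCODE M21 and promoters from RefSeq (GRCm38.p6), both matched by symbol, with the first promoter per symbol. Positions with mm9 are those of the table, with starts counted from 1. Of the tested genes 1841 have a locus that the table shares with another gene. Pseudocounts, filters, the fold rule, scaling, the reference, shared loci and length were varied. Results for 2 genes are not reported here.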

Additional observations from a re-analysis of the deposited data

Results flagged for a closer look

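The ratio of 2 genes was past 2-fold in opposite directions at 3 h and 6 h, and whether the times differ was not tested. Ppp1r10, which encodes the nuclear targeting subunit PNUTS of protein phosphatase 1, had a log2 ratio of -1.01 at 3 h (19.3 FPKM with Omomyc and 9.07 FPKM with the fusion) and 1.27 at 6 h (17.9 and 44.6 FPKM). Rbm12, an RNA-binding protein gene, had -1.42 at 3 h (41.4 and 14.8 FPKM) and 1.01 at 6 h (11.4 and 23.9 FPKM). The table gives both genes a locus shared with another gene.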

How the results depend on the processing

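No paired analysis was possible because the table holds 1 averaged column per group, and leaving out a replicate or adding a replicate block could not be run for the same reason. With a pseudocount of 5 FPKM the fusion differed from Omomyc at 3 h in 502 genes (363 higher, 139 lower), in 445 without small RNA records (333 and 112), and at 6 h in 485 (348 and 137). With a 1.5-fold rule these counts were 2874 (1498 and 1376), 2801 (1459 and 1342) and 3288 (1775 and 1513). With a pseudocount of 0.1 FPKM 626 genes were lower at 3 h, or 595 without small RNA records. With the columns scaled to the same FPKM sum 790 were lower, or 757 without small RNA records. The other alternatives left each count within 1.5 times its value. Of 165 named genes past 2-fold, 121 could be computed under all 11 alternatives and 100 of these stayed past it. The other 44, Mat2a and Msrb3 among them, were missing from at least 1 alternative by its construction, and 28 of them stayed past it where present. No named gene changed sign in any alternative that held it. Among those lost under some scaling were Slc3a2, B2m, Rpl38, Clk4, Lrp1 and Cox6c, and among those lost with the mean of the other 3 columns as reference were Bok, Srsf11 and Cdc42ep3. With equal column sums 48 of 51 list medians moved by at least 0.2, 27 of 102 list counts moved by over 1.5 times or to or from 0, and 10 medians changed sign. With length classes set to 0, 5 medians changed sign. The reference, shared-locus and length alternatives were chosen after seeing the data. Depth limits genes of low FPKM most, and short RNAs above all.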

Other observations

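Gene groups outside the main account differed in their share of called genes at 3 h, which over all 10121 genes was 5.33% higher and 3.52% lower. Of 23 tested endoplasmic reticulum chaperone and unfolded protein response genes 2 were higher, the degradation factor gene Herpud1 (26.1 FPKM with Omomyc and 173 FPKM with the fusion, log2 ratio 2.68) and the co-chaperone gene Dnajb9 (9.26 and 62.8 FPKM, 2.64). The list median was 0.46 at 3 h and -0.20 at 6 h. Of 19 heat-shock genes 4 were higher, led by Dnajb4 (22.8 and 93.1 FPKM, 1.98) and Bag3 (21.5 and 67.8 FPKM, 1.62). Of 31 proteasome subunit genes 0 were past the rule at either time, with a median of 0.04 at 3 h, negative with equal column sums, and -0.43 at 6 h. Of 21 cholesterol genes 0 were past it at 3 h.

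The mesenchymal list held 5 higher genes of 17 and 0 lower, among them the transcription factor genes Twist1 (22.5 and 89.9 FPKM, 1.95) and Twist2 (20.4 and 55.8 FPKM, 1.41). In the TGF-beta, BMP and ID list 7 of 24 genes were higher and 2 lower. The higher ones included the pathway inhibitor genes Bambi (0.558 and 4.32 FPKM, 1.77), Tgif1 (84.0 and 233 FPKM, 1.46) and Skil (15.6 and 44.4 FPKM, 1.45). Of 25 glycolysis and hypoxia genes 6 were higher and 0 lower, led by Ndrg1 (39.8 and 213 FPKM, 2.39). Of 14 metallothionein and zinc transporter genes 3 were higher, with Mt2 at 19.6 and 103 FPKM (2.34) and Mt1 at 198 and 805 FPKM (2.02).

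Genes not past the rule at 3 h made up 341 of those higher and 236 of those lower at 6 h. Among them, chosen after their values were seen, Inhba, which encodes an activin subunit, had log2 ratios of 0.59 at 3 h and 2.73 at 6 h, the neuronal tubulin gene Tubb3 -0.03 and 2.51, the glycine transporter gene Slc6a9 0.87 and 2.72 and the chemokine gene Cxcl12 -0.45 and -2.07.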
